A study of Homo sapiens with 12 samples.

Results

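Integrins are the heterodimeric receptors, each made of an alpha and a beta subunit, that hold a cell to its matrix, and fibronectin is the matrix glycoprotein that several of them bind. The genes described here are FN1, which encodes fibronectin, and 9 integrin subunit genes, ITGA5, ITGA4, ITGAV, ITGB1, ITGB3, ITGB8, ITGA2, ITGA3 and ITGA6. They were chosen by symbol from the deposited count table, where these 10 genes were 10 of 75249 rows kept, with earlier results of these data known. All 10 passed the filter on low counts. They were followed in LOX-IMVI BR and A375, human metastatic melanoma cell lines, each given 6-thio-dG at 5 µM, BIBR1532 at 25 µM or a control treatment. Each line and treatment had 2 biological replicates, so that 12 RNA sequencing libraries fell into 6 groups: LOX-IMVI BR with 6-thio-dG, LOX-IMVI BR with BIBR1532, LOX-IMVI BR control, A375 with 6-thio-dG, A375 with BIBR1532 and A375 control. 6-thio-dG is a guanine nucleoside analog that telomerase builds into telomeres, and BIBR1532 is a small-molecule telomerase inhibitor. The doses of the compounds differ, and the labels used here do not state the time of exposure, the vehicle or what BR stands for.

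An alpha and a beta subunit pair in the endoplasmic reticulum, and the pair decides the ligand. ITGA5 with ITGB1 is the classical fibronectin receptor, which binds the RGD motif of fibronectin, and ITGA4 with ITGB1 binds fibronectin at another site and the vascular adhesion molecule VCAM1. ITGAV pairs with several beta subunits: with ITGB3 it forms the vitronectin receptor, which is known in melanoma for its appearance at the change from radial to vertical growth, and with ITGB8 it binds latent TGF-beta. ITGA2 with ITGB1 binds collagen, and ITGA3 and ITGA6 give laminin receptors. FN1, ITGA4, ITGAV and ITGA6 lie on chromosome 2, ITGA3 and ITGB3 on chromosome 17, ITGA5 on 12, ITGB1 on 10, ITGB8 on 7 and ITGA2 on 5. Inside the cell, talin and kindlin bind the beta tail and link it to actin through vinculin and other focal adhesion proteins.

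Total counts per library ranged from 11813388 to 25822381, and values are given as CPM, the count relative to the library's total after scaling by the TMM method, a scale on which the same gene can be compared between libraries. RNA came from cultured lines in bulk, so fewer cells with a transcript and less of it per cell cannot be told apart, and because the library kit did not keep the strand, reads from an overlapping antisense transcript cannot be separated either. The lines were labelled as metastatic melanoma. The summed CPM of 7 melanocyte lineage markers was 571 to 644 in the A375 control. Most of this was the lineage factor SOX10, at 512 to 590.4 CPM. In LOX-IMVI BR the summed CPM of all 7 melanocyte lineage markers stayed between 8.99 and 22.6 over its 6 libraries. The summed CPM of 5 markers of dedifferentiated melanoma was 1098 to 1136 in the LOX-IMVI BR control and 1602 to 1824 in the A375 control. Summed markers of endothelial cells and platelets, which also carry ITGB3, were at most 1.93 CPM in any group and those of leukocytes at most 6.58 CPM. Replicates of LOX-IMVI BR were close, with a biological coefficient of variation of 4.59% within that line, against 36.2% within A375, and tests used a spread shared by both lines (25.8%). The shared spread is under that within A375, so p-values for A375 can be too small. It is above that within LOX-IMVI BR, so p-values for that line can be too large. Library composition also differed in A375: relative to the mean of all libraries, transcripts in the lowest eighth of GC content were shifted by -2.20 on the log2 scale in 6-thio-dG replicate 1 and by -0.15 in replicate 2, by -1.60 and -1.28 in the BIBR1532 libraries and by -0.25 and -0.23 in the control, against 0.86 to 1.16 in the libraries of LOX-IMVI BR. Among the genes described here ITGB8 (37.8% GC), ITGAV (38.3%), ITGB1 (40.0%) and ITGA2 (40.2%) have AT-rich transcripts, whereas ITGA5 (58.7%) and ITGA3 (60.9%) are GC-rich. Values with a GC trend removed from each library are given beside the A375 results of these genes. Whether the libraries of groups overlap is described below, and with 2 libraries per group separation was common. Against the control of LOX-IMVI BR, 74.4% of all genes tested had no overlap with 6-thio-dG and 62.9% with BIBR1532. In A375 these shares were 46.3% and 57%. Of the 10 genes, 10 and 7 were apart in LOX-IMVI BR and 6 and 9 in A375.

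The 250 bases before the transcription start of FN1 and ITGA5 are shown because the ligand and the alpha subunit of its main receptor were called together, falling with 6-thio-dG in LOX-IMVI BR and rising with BIBR1532 in A375. RefSeq promoter windows on GRCh38.p14 were matched for 8 of the 10 genes. FN1 lies on the minus strand at chr2:215436069-215436318 and ITGA5 on the minus strand at chr12:54419267-54419516, and both are printed 5' to 3' in the sense of the gene. Capitals mark TGACGTCA, the cAMP response element, and CCAAT, the CCAAT box, searched on both strands along with TGANTCA, the AP-1 motif.
FN1: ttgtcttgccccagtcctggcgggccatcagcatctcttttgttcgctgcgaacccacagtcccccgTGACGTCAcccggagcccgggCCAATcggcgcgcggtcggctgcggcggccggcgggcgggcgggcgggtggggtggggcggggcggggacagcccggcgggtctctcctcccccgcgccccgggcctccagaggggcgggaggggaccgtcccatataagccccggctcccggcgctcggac
ITGA5: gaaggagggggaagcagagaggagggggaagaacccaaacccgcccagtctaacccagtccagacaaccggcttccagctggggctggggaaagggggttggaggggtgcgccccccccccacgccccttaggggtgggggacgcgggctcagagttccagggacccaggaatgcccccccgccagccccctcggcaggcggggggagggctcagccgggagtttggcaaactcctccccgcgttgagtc
The FN1 window held the cAMP response element 183 bases and the CCAAT box 162 bases before the start, and the human fibronectin promoter is known for both elements. The ITGA5 window had no match to any of these 3 motifs. Among 35116 promoter windows of the same length, 1.65% held TGACGTCA, 6.57% held TGANTCA and 32.0% held CCAAT on either strand, and none of these motifs overlaps another in FN1. GGGCGG, the GC box, was found 6 times in FN1, some of them overlapping each other but none of the other motifs, and 1 time in ITGA5, with 42.6% of all windows holding it. TGACGTCA and TGANTCA were in none of the other windows matched for the integrin genes. A match is a run of letters and not a measured binding site.

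**Figure D1:**
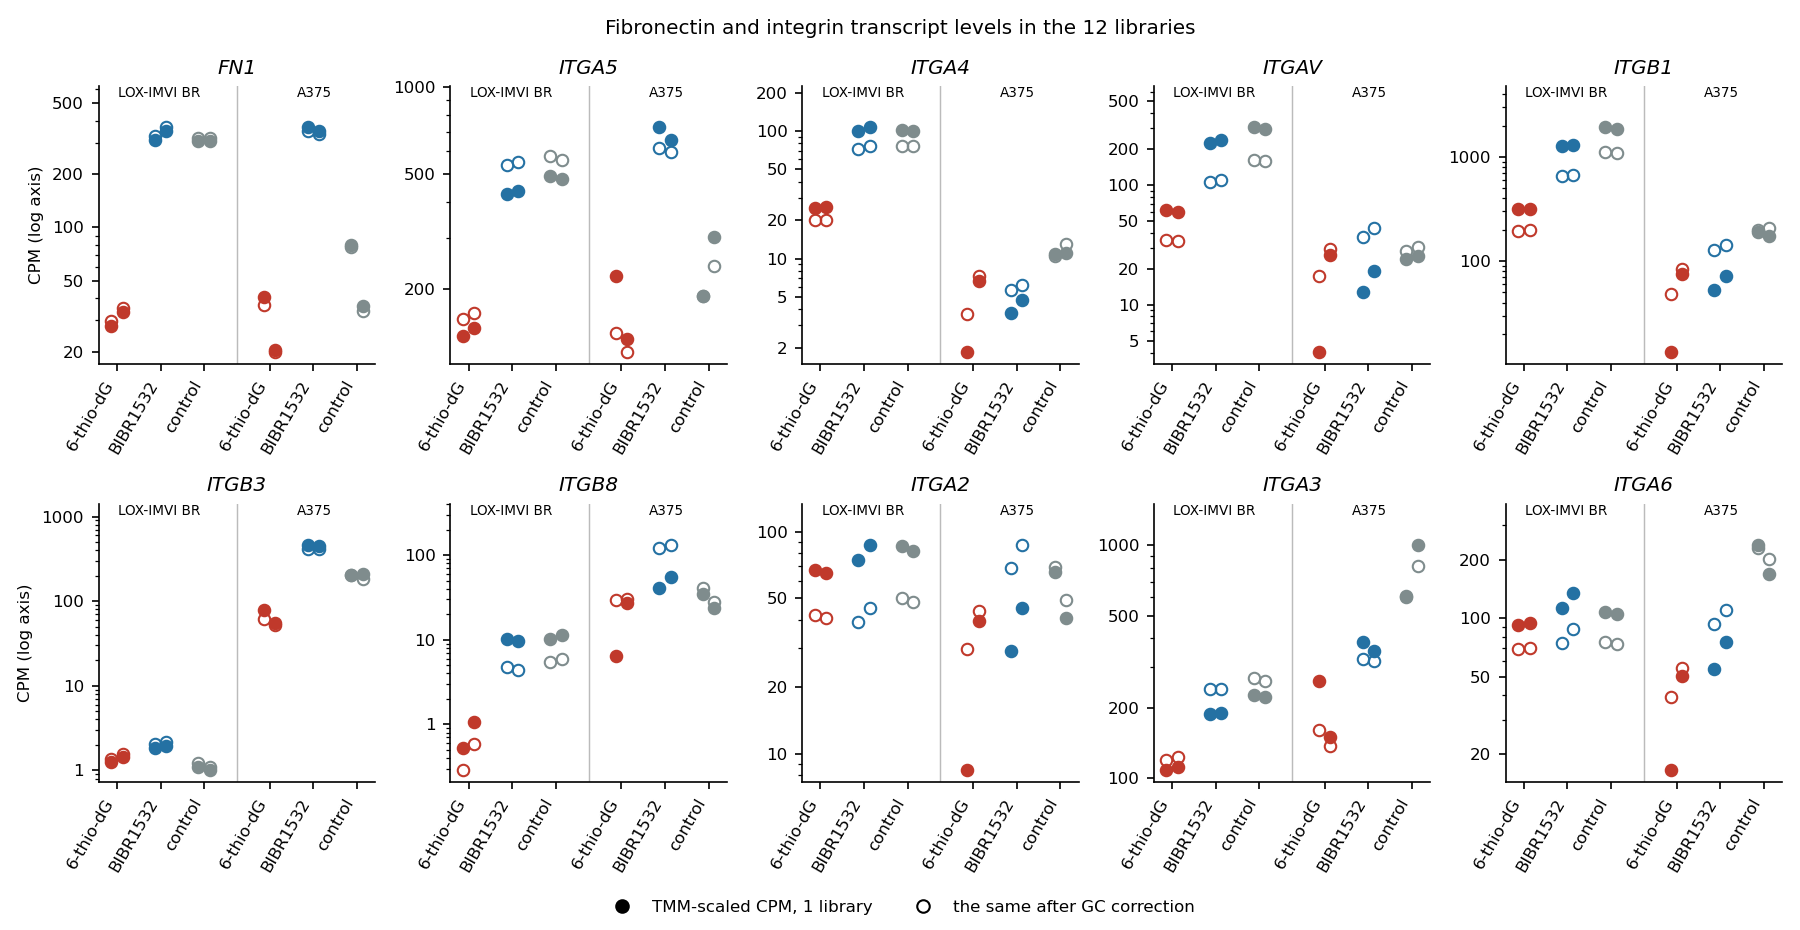
TMM-scaled CPM of FN1 and the 9 integrin genes in each library on a log axis (filled points) and the same after removal of a GC trend (open points), with LOX-IMVI BR left and A375 right in each panel, in the order 6-thio-dG, BIBR1532, control. The 2 FN1 values with 6-thio-dG in LOX-IMVI BR, 28.0 and 33.6 CPM, lie far under its BIBR1532 and control values, and ITGB3 stays under 2 CPM in that line.

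Fibronectin transcript was lower with 6-thio-dG in LOX-IMVI BR and higher with BIBR1532 in A375. In LOX-IMVI BR, FN1 had 28.0 and 33.6 CPM with 6-thio-dG, 311 and 351 CPM with BIBR1532 and 305 and 308 CPM in the control. Every 6-thio-dG library lay under every other library of the line, and the BIBR1532 libraries lay just above the control libraries. The fall with 6-thio-dG was -3.31 ± 0.41 on the log2 scale (SE), a 9.95-fold lower level than in the control (edgeR, Benjamini-Hochberg adjusted p = 0.000126). With BIBR1532 the log2 fold change was 0.11, with a 95% interval of -0.69 to 0.91 (adjusted p = 0.964).

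In A375, FN1 had 40.5 and 20.3 CPM with 6-thio-dG, 367 and 348 CPM with BIBR1532 and 79.5 and 36.2 CPM in the control. The BIBR1532 values were above every other A375 library, and the 6-thio-dG and control values overlapped. The rise with BIBR1532 was 2.62 ± 0.40 (6.16-fold, edgeR adjusted p = 0.000732), and it was also called with the A375 libraries alone (adjusted p = 0.00477) and after GC correction (2.66). For 6-thio-dG the log2 fold change of FN1 was -0.93 ± 0.38 (edgeR adjusted p = 0.0992) and -0.88 after GC correction (adjusted p = 0.0978). It was called by DESeq2's test (-1.03, adjusted p = 0.0439) and by edgeR without the low-count filter (-1.23, adjusted p = 0.00118). It was not called by edgeR with the A375 libraries alone (adjusted p = 0.267), upper-quartile scaling (0.43) or symbol-named genes only (0.177). The log2 fold change was -1.52 without 6-thio-dG replicate 1, -1.39 without control replicate 2 and -0.26 without control replicate 1.

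The alpha subunit of the fibronectin receptor moved like its ligand where FN1 was called. ITGA5 had 138 and 147 CPM with 6-thio-dG in LOX-IMVI BR, 426 and 438 CPM with BIBR1532 and 491 and 482 CPM in the control. It fell by 1.77 ± 0.32 with 6-thio-dG on the log2 scale, a 3.42-fold lower level (edgeR adjusted p = 0.00173). In A375, ITGA5 had 222 and 134 CPM with 6-thio-dG, 726 and 654 CPM with BIBR1532 and 189.5 and 303 CPM in the control. BIBR1532 libraries were the highest of the line and 6-thio-dG libraries overlapped the control. ITGA5 rose by 1.49 ± 0.31 with BIBR1532 (2.80-fold, edgeR adjusted p = 0.00709, and adjusted p = 0.0674 with the A375 libraries alone). With 6-thio-dG its log2 fold change was -0.47 ± 0.31 (adjusted p = 0.307), and -0.54 ± 0.13 after GC correction, where it was called (adjusted p = 0.0124). In that fit 16.6% of genes were called lower and 17.4% higher for 6-thio-dG in A375.

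ITGB1, the common beta subunit of the fibronectin, collagen and laminin receptors, was the most abundant of the 10 genes per kilobase in LOX-IMVI BR. It had 316 and 316 CPM with 6-thio-dG in that line, 1263 and 1304 CPM with BIBR1532 and 1939 and 1867 CPM in the control. The 3 groups of libraries did not overlap, and the fall with 6-thio-dG was -2.59 ± 0.54, or 6.02-fold (edgeR adjusted p = 0.00484). In A375, ITGB1 had 13.3 and 75.3 CPM with 6-thio-dG, 52.9 and 72.3 CPM with BIBR1532 and 189.9 and 173 CPM in the control. Both compounds left ITGB1 under both control libraries, and the 6-thio-dG replicates were far apart. The fall with 6-thio-dG was -2.03 ± 0.53 (edgeR adjusted p = 0.0181) and, after GC correction, when the 6-thio-dG replicates read 48.3 and 84.1 CPM and the control 201 and 207 CPM, it was -1.43 ± 0.24 (adjusted p = 0.00167). Without GC correction the call was lost when either A375 control library was left out and with the A375 libraries alone (adjusted p = 0.0681). With BIBR1532 the log2 fold change was -1.53 ± 0.52 (adjusted p = 0.0582), and -0.51 ± 0.23 after GC correction (adjusted p = 0.119). Without GC correction it was called by DESeq2's test (adjusted p = 0.0429) and by edgeR with a replicate block (adjusted p = 0.042). By edgeR with the A375 libraries alone it was not called (adjusted p = 0.171).

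ITGA4, the alpha subunit that binds VCAM1 and the alternatively spliced region of fibronectin, was mainly a transcript of LOX-IMVI BR. It had 24.9 and 25.2 CPM with 6-thio-dG in that line, 100.04 and 107 CPM with BIBR1532 and 102 and 101 CPM in the control, a fall with 6-thio-dG of -2.01 ± 0.41, or 4.03-fold (edgeR adjusted p = 0.00422). In A375, ITGA4 had 1.84 and 6.72 CPM with 6-thio-dG, 3.72 and 4.70 CPM with BIBR1532 and 10.95 and 10.96 CPM in the control. Both compounds lay under the control in every library, at -1.34 ± 0.43 with 6-thio-dG (edgeR adjusted p = 0.0427) and -1.38 ± 0.42 with BIBR1532 (adjusted p = 0.0397). These A375 calls were close to the threshold and were not made with the A375 libraries alone (adjusted p = 0.174 for 6-thio-dG and 0.18 for BIBR1532). After GC correction they were -0.83 and -0.89, and both were called (adjusted p = 0.0318 and 0.0217).

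ITGAV, the partner of ITGB3, ITGB8 and other beta subunits, had 61.8 and 59.9 CPM with 6-thio-dG in LOX-IMVI BR, 225 and 239 CPM with BIBR1532 and 306 and 297 CPM in the control. The fall with 6-thio-dG was -2.31 ± 0.55, or 4.96-fold (edgeR adjusted p = 0.0112), and the groups did not overlap. Of all genes tested, 74.4% had no overlap between the 6-thio-dG and control libraries of this line. In A375, ITGAV had 4.01 and 26.2 CPM with 6-thio-dG, 12.8 and 19.1 CPM with BIBR1532 and 24.4 and 25.6 CPM in the control. Neither compound gave a call in A375, and the 6-thio-dG replicates lay on both sides of the control. With 6-thio-dG its log2 fold change was -0.72 ± 0.54 (adjusted p = 0.374), and -0.09 after GC correction (adjusted p = 0.788). The log2 fold change of ITGAV with BIBR1532 in A375 was -0.65 ± 0.54 (adjusted p = 0.437), and 0.56 ± 0.22 after GC correction (adjusted p = 0.0763), so its direction depended on the correction.

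ITGB3, the beta subunit of the vitronectin receptor, separated the lines and moved in opposite directions with the compounds in A375. In A375 it had 78.5 and 54.9 CPM with 6-thio-dG, 462 and 444 CPM with BIBR1532 and 206 and 209 CPM in the control. The 3 groups were well apart. ITGB3 fell by 1.64 ± 0.28 with 6-thio-dG on the log2 scale, or 3.12-fold (edgeR adjusted p = 0.00175, and 0.0328 with the A375 libraries alone). It rose by 1.12 ± 0.28 with BIBR1532, or 2.18-fold (edgeR adjusted p = 0.0159, and 0.134 with the A375 libraries alone). GC correction left these changes at -1.62 and 1.18. In LOX-IMVI BR, ITGB3 was low, at 1.24 and 1.45 CPM with 6-thio-dG, 1.85 and 1.92 CPM with BIBR1532 and 1.10 and 1.00 CPM in the control, which are 22 to 42 counts per library. Its log2 fold change with BIBR1532 there was 0.84 ± 0.33 (adjusted p = 0.223).

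ITGB8, whose dimer with ITGAV binds latent TGF-beta, had 0.521 and 1.07 CPM with 6-thio-dG in LOX-IMVI BR, 10.3 and 9.73 CPM with BIBR1532 and 10.3 and 11.4 CPM in the control. The 6-thio-dG libraries held 13 and 31 counts, against 205 and 250 in the control, and the fall was -3.74 ± 0.58, or 13.4-fold (edgeR adjusted p = 0.000687). In A375, ITGB8 had 6.51 and 27.3 CPM with 6-thio-dG, 40.8 and 55.4 CPM with BIBR1532 and 34.9 and 23.8 CPM in the control. The BIBR1532 libraries were above both control libraries, and the 6-thio-dG libraries overlapped the control. With 6-thio-dG the log2 fold change of ITGB8 was -0.80 ± 0.49 (adjusted p = 0.273), and -0.06 after GC correction (adjusted p = 0.89). ITGB8 was not called with BIBR1532 (0.71 ± 0.49, adjusted p = 0.337), but with the GC trend removed it was 122 and 132 CPM with BIBR1532 against 41.0 and 28.0 CPM in the control (1.93 ± 0.26, edgeR adjusted p = 0.000604).

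Among the receptors for other matrix proteins, those of laminin fell in A375. ITGA3 had 261 and 151 CPM with 6-thio-dG in A375, 385 and 353 CPM with BIBR1532 and 603 and 1005 CPM in the control. Each compound group lay wholly under the control, although the control replicates were far apart. ITGA3 fell by 1.96 ± 0.33 with 6-thio-dG, or 3.90-fold (edgeR adjusted p = 0.0015), and by 1.12 ± 0.32 with BIBR1532, or 2.18-fold (adjusted p = 0.03). After GC correction the changes of ITGA3 were -2.07 and -1.05, and both were called. ITGA6 had 16.5 and 50.4 CPM with 6-thio-dG in A375, 54.4 and 75.3 CPM with BIBR1532 and 238 and 168 CPM in the control. It fell by 2.60 ± 0.43 with 6-thio-dG, or 6.06-fold (edgeR adjusted p = 0.00142), and by 1.65 ± 0.41 with BIBR1532, or 3.13-fold (adjusted p = 0.0178). After GC correction these changes of ITGA6 were -2.01 and -1.002, and both were still called. With the A375 libraries alone, the 6-thio-dG falls of ITGA3 and ITGA6 were called (adjusted p = 0.0199 and 0.00938) and their BIBR1532 falls were not (adjusted p = 0.178 and 0.0809).

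In LOX-IMVI BR, ITGA3 had 108 and 112 CPM with 6-thio-dG, 189.6 and 190.5 CPM with BIBR1532 and 228 and 225 CPM in the control, and its fall of -1.04 ± 0.32 with 6-thio-dG was called (edgeR adjusted p = 0.0366). That call was close to the threshold and was lost without any 1 library of LOX-IMVI BR (adjusted p up to 0.214), with upper-quartile scaling (adjusted p = 0.151) and with symbol-named genes alone (adjusted p = 0.0571). ITGA6 had 92.6 and 94.1 CPM with 6-thio-dG, 113 and 134 CPM with BIBR1532 and 108 and 105 CPM in the control. Its 95% interval for 6-thio-dG ran from -1.05 to 0.67 on the log2 scale (adjusted p = 0.822), which holds the value of ITGA3, and the difference between ITGA3 and ITGA6 was not tested. ITGA2, the collagen receptor subunit, had 67.1 and 64.8 CPM with 6-thio-dG in this line, 74.1 and 86.8 CPM with BIBR1532 and 85.8 and 81.7 CPM in the control, and was not called with either compound. In A375, ITGA2 had 8.43 and 39.5 CPM with 6-thio-dG, 28.97 and 45.3 CPM with BIBR1532 and 66.0 and 40.9 CPM in the control, where the replicates of every group were far apart and no call was made. Its log2 fold change there was -1.16 ± 0.51 with 6-thio-dG and -0.53 ± 0.50 with BIBR1532, and -0.50 and 0.46 after GC correction, so that the direction with BIBR1532 depended on the correction.

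**Figure D2:**
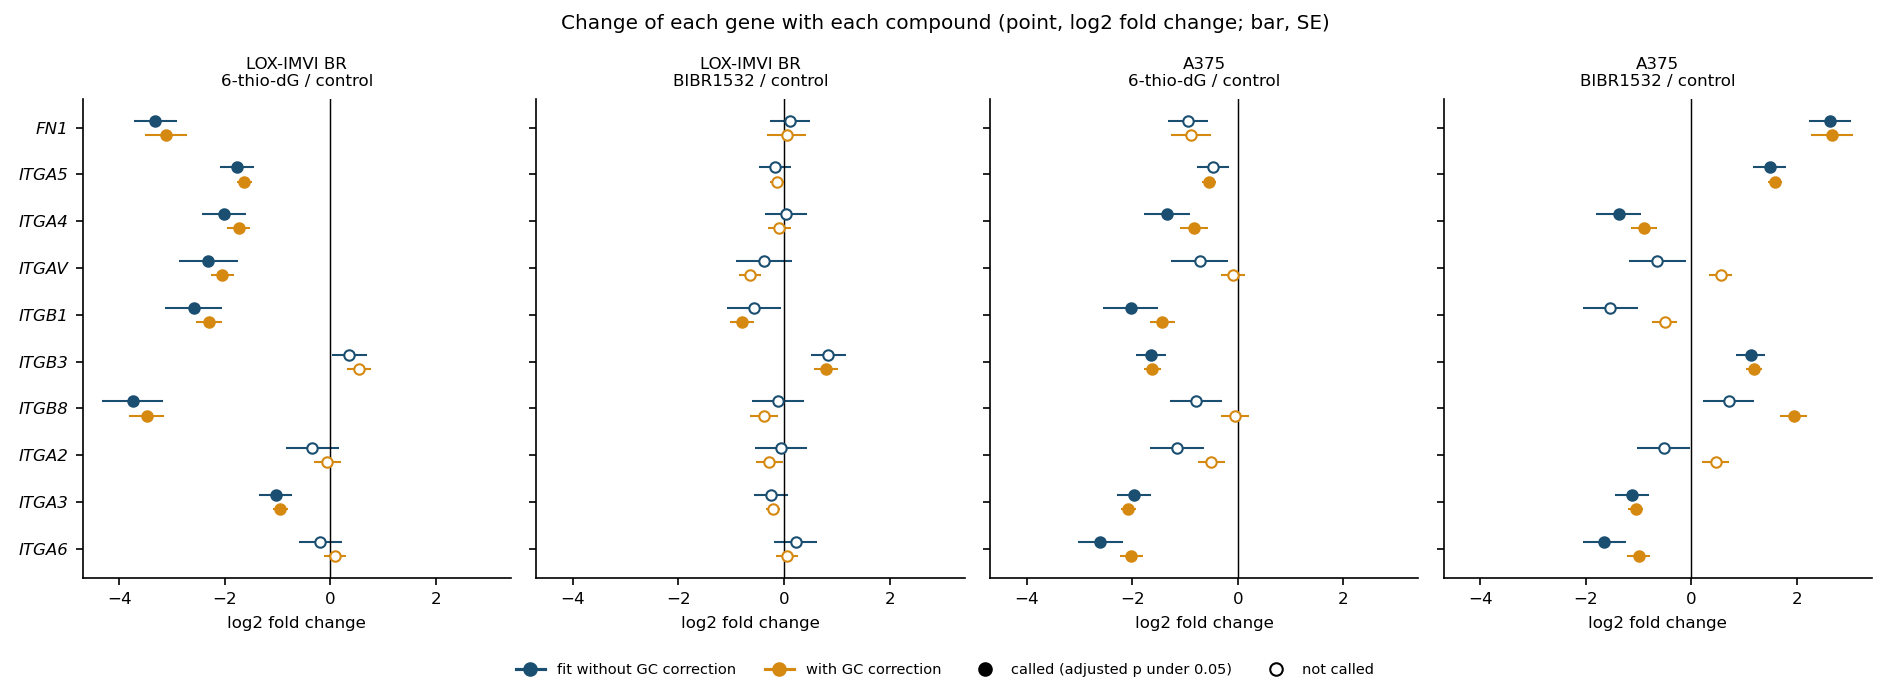
Log2 fold change of each gene with each compound against the control of its line (points) ± SE (bars), without GC correction (blue) and with it (orange), with filled points for an edgeR adjusted p under 0.05. With 6-thio-dG in LOX-IMVI BR 7 genes are filled on the left of 0, and for A375 given BIBR1532, FN1, ITGA5 and ITGB3 are filled on the right while ITGA4, ITGA3 and ITGA6 are filled on the left.

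Comparison by comparison, 6-thio-dG in LOX-IMVI BR lowered 7 of the 10 genes and raised none, while among all 29114 genes tested 7.16% were called lower and 9.81% higher. The median log2 fold change of the 10 genes was -1.89, beside 0.05 over all genes tested. Many of the genes tested are NONCODE loci, and among symbol-named genes 10.8% were called lower and 6.21% higher, with a median of -0.13. In the same libraries the summed markers of dedifferentiated melanoma were 446 to 471 CPM with 6-thio-dG and 1098 to 1136 CPM in the control, and those of fibroblasts 23.7 to 25.7 CPM with 6-thio-dG and 1825 to 1856 CPM in the control. COL1A1, described below with the ligands, made up most of the fibroblast sum in both groups. The part of these markers in the result was not tested. FN1, ITGA5 and ITGB8 were called with either 6-thio-dG replicate of LOX-IMVI BR left out, and the other 4 calls were lost in both cases, so that 3 genes remained. When the lone replicate of a group was fitted it was assumed to vary like the other groups. With the LOX-IMVI BR libraries alone 9 genes were called lower, the additional ones being ITGA2 (-0.35) and ITGA6 (-0.19). The spread within this line is small, so small changes were called in that fit. Its share of calls over all genes is not reported here.

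For 6-thio-dG in A375, 5 genes fell (ITGA4, ITGB1, ITGB3, ITGA3 and ITGA6) and none rose, where 8.21% of all genes were called lower and 9.86% higher, and the median was -1.25 beside 0.03 over all genes. Among symbol-named genes 12.9% were called lower and 7.81% higher, with a median of -0.25. Dedifferentiated melanoma markers summed to 280.3 to 395 CPM with 6-thio-dG and 1602 to 1824 CPM in the A375 control, and melanocyte lineage markers to 312 to 576 CPM with 6-thio-dG and 571 to 644 CPM in the control. With the A375 libraries alone 3 genes were called lower, namely ITGB3, ITGA3 and ITGA6, and the share of all genes called in that fit is not reported here. The log2 fold changes of ITGAV, ITGB8 and ITGA2 were -2.64, -2.18 and -2.67 without A375 6-thio-dG replicate 2. Without replicate 1 they were 0.068, -0.11 and -0.44. For BIBR1532 in A375, 3 genes rose (FN1, ITGA5 and ITGB3) and 3 fell (ITGA4, ITGA3 and ITGA6), where 8.49% of all genes were called higher and 7.29% lower. The median was -0.59 beside -0.04 over all genes, and 0.51 beside 0.16 after GC correction. Calls in A375 were more common in the fit with GC correction. There 21.7% of genes were called higher and 10.1% lower for BIBR1532, and 17.4% and 16.6% for 6-thio-dG. Among symbol-named genes 8.95% were called higher and 10.3% lower, with a median of -0.15. Melanocyte lineage markers summed to 1301 to 1463 CPM with BIBR1532 and 571 to 644 CPM in the A375 control, and dedifferentiated melanoma markers to 1236 to 1298 CPM with BIBR1532 and 1602 to 1824 CPM in the control. The part of these markers in the A375 results was not tested. Without A375 BIBR1532 replicate 1 the call of FN1 remained, and without replicate 2 those of FN1 and ITGA5. Without either A375 6-thio-dG replicate more of the genes were called, although the log2 fold changes hardly moved (ITGAV -0.65 and ITGB1 -1.53). The share of all genes called in those fits is not reported here.

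BIBR1532 in LOX-IMVI BR gave no call among the 10 genes by edgeR, where 2.9% of all genes were called higher and 0.69% lower, and 3.03% and 0.748% of symbol-named genes. ITGB3 alone had an unadjusted p under 0.05, as did 15.5% of all genes, and DESeq2 also called 0. With the LOX-IMVI BR libraries alone 6 genes were called, ITGB3 (0.78, adjusted p = 0.025) and ITGA6 (0.16) higher and ITGB1 (-0.63), ITGAV (-0.44), ITGA3 (-0.31) and ITGA5 (-0.23) lower. The share of all genes called with the line alone is not reported here. ITGB1 and ITGB3 were also called after GC correction, at -0.80 and 0.80. In the fit with GC correction 7.12% of genes were called higher and 4.95% lower. The 95% interval of ITGB1 in the fit of all libraries ran from -1.65 to 0.52, so a change of the size seen with 6-thio-dG lay outside it.

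The compounds were given at different doses, and their direct comparison within a line is of those treatments. In LOX-IMVI BR 6 genes were lower with 6-thio-dG than with BIBR1532 (FN1, ITGA5, ITGA4, ITGAV, ITGB1 and ITGB8) and none was higher, where 10.7% of all genes were called lower and 9.9% higher. FN1 showed the difference at -3.42 ± 0.41 (edgeR adjusted p = 6.04e-05) and ITGB8 at -3.63 ± 0.58 (adjusted p = 0.000601). Without either 6-thio-dG or either BIBR1532 library of LOX-IMVI BR the count was 4, in each case FN1, ITGA5, ITGA4 and ITGB8. In A375, 3 genes were lower with 6-thio-dG than with BIBR1532, FN1 at -3.56 ± 0.41 (edgeR adjusted p = 7.05e-05), ITGA5 at -1.95 ± 0.32 (adjusted p = 0.00093) and ITGB3 at -2.76 ± 0.29 (adjusted p = 3.1e-05), and none was higher, where 8.76% of all genes were called lower and 7.26% higher. These 3 were also called with the A375 libraries alone. After GC correction 8 of the 10 genes were lower, where 20.9% of the 14048 genes in that fit were called lower and 10.1% higher. Without A375 6-thio-dG replicate 2, and with no GC correction, more of the 10 genes were called than in the main fit. The share of all genes called then is not reported here.

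The control cells of the lines had different sets of integrins. Between the controls 5 genes were higher in LOX-IMVI BR than in A375, ITGAV (3.59 ± 0.59), ITGB1 (3.39 ± 0.55), ITGA4 (3.21 ± 0.44), FN1 (2.40 ± 0.39) and ITGA5 (0.98 ± 0.31), and 3 were lower, ITGB3 (-7.62 ± 0.38), ITGA3 (-1.83 ± 0.33) and ITGB8 (-1.44 ± 0.50), with edgeR adjusted p between 5.31e-09 and 0.0261. Of all genes 21.1% were called higher and 28.8% lower in this comparison, so calls were common. ITGB3 stood at 1.05 CPM in the LOX-IMVI BR control and 208 CPM in the A375 control, and ITGAV at 302 CPM in the LOX-IMVI BR control and 25.0 CPM in the A375 control. After GC correction the difference of ITGAV was 2.52 and that of ITGB1 2.49, and ITGA6 was called lower in LOX-IMVI BR (-1.48, adjusted p = 0.000169). Leaving out A375 control replicate 1 or either LOX-IMVI BR control library ended the calls of ITGA5 and ITGB8, and leaving out A375 control replicate 2 or A375 BIBR1532 replicate 2 ended that of ITGB8.

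Per kilobase of transcript, where genes can be compared with each other, the order in the LOX-IMVI BR control was ITGB1 at 503 ± 13.4 CPM per kb (SD, n = 2), ITGA5 at 109.5 ± 1.53 and then ITGA3 (46.3 ± 0.473), ITGAV (42.9 ± 0.881) and FN1 (34.4 ± 0.232). ITGB8 (1.24 ± 0.0876) and ITGB3 (0.264 ± 0.0183) were last. With 6-thio-dG in this line FN1 was in place 8, at 3.46 ± 0.448 CPM per kb, against place 5 in the control, and ITGB1 was still first at 83.6 ± 0.104. ITGAV (8.65 ± 0.189) and ITGA2 (8.38 ± 0.208) were next to each other with 6-thio-dG and differed by little more than their spread. In the A375 control ITGA3 led at 165 ± 58.1 CPM per kb, and ITGA5 (55.4 ± 18.1), ITGB3 (52.0 ± 0.463) and ITGB1 (47.9 ± 3.19) followed. ITGA5 did not differ from either of the others beyond its own spread, and the ITGB3 libraries lay above the ITGB1 libraries. The orders in this paragraph are without GC correction. With the GC trend removed, ITGB1 lay above ITGB3 in each A375 control library. Their shares of beta subunit transcript were then 34.7% and 32.3% for ITGB1 and 33.5% and 26.9% for ITGB3. With BIBR1532 in A375 ITGA5 (155 ± 11.4) and ITGB3 (113 ± 3.09) came first, and ITGA3 was next at 75.5 ± 4.75 CPM per kb.

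Because every integrin needs a beta subunit, the share of each beta gene among the summed CPM per kilobase of the beta subunit genes was also taken. In LOX-IMVI BR, ITGB1 made up 86.8% and 85.9% of it with 6-thio-dG, 94.9% and 95.1% with BIBR1532 and 96.0% and 95.9% in the control. ITGB5, a partner of ITGAV, held 10.3% and 10.6% with 6-thio-dG, 4.002% and 3.74% with BIBR1532 and 3.59% and 3.64% in the control. In A375 no beta gene had a majority in the control or with 6-thio-dG. ITGB3 held 30.8% and 21.7% with 6-thio-dG, 62.9% and 60.7% with BIBR1532 and 34.5% and 28.95% in the control. ITGB1 held 5.504% and 31.4% with 6-thio-dG, 7.61% and 10.4% with BIBR1532 and 33.5% and 25.3% in the control. With the GC trend removed, the ITGB1 share in A375 was 21.8% and 35.2% with 6-thio-dG, 17.4% and 18.9% with BIBR1532 and 34.7% and 32.3% in the control, and the ITGB3 share with BIBR1532 was 53.5% and 52.2%. These are shares of transcript and not of receptor protein. Among alpha genes, ITGA5 in A375 held 60.1% and 57.5% with BIBR1532, against 18.3% and 20.7% in the control, where ITGA3 held 53.0% and 62.4%.

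**Figure D3:**
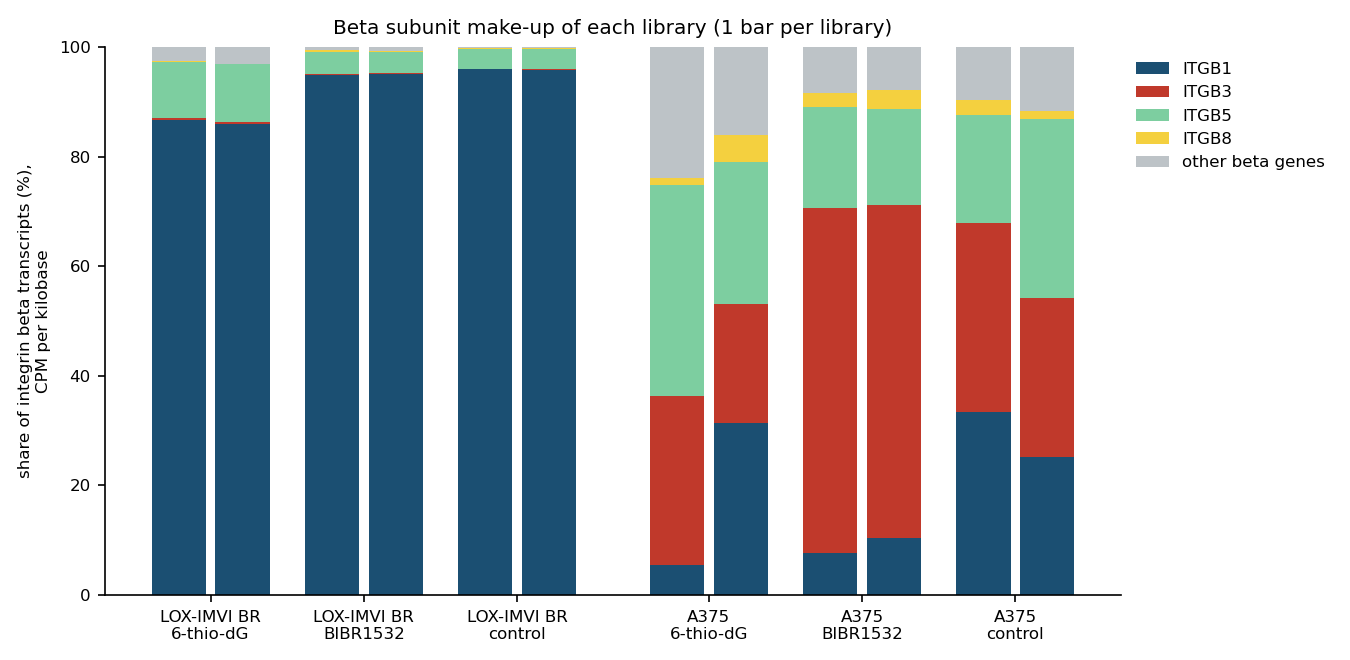
Share of each integrin beta subunit gene in the summed CPM per kilobase of beta genes (percent, stacked), with 1 bar per library. ITGB1 fills most of every LOX-IMVI BR bar, and ITGB3 takes 62.9% and 60.7% of the A375 bars with BIBR1532 against 34.5% and 28.95% in the A375 control.

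Whether a compound acted differently in the lines was tested as the difference of its log2 fold changes. For 6-thio-dG, FN1 (-2.38 ± 0.54, edgeR adjusted p = 0.0189) and ITGB8 (-2.95 ± 0.74, adjusted p = 0.0324) had a lower log2 fold change in LOX-IMVI BR than in A375. ITGB3 (2.00 ± 0.43, adjusted p = 0.0151) and ITGA6 (2.41 ± 0.58, adjusted p = 0.0257) had a higher one in LOX-IMVI BR, having fallen in A375. ITGB3 had only 22 to 42 counts per library in LOX-IMVI BR, so a fall there would rest on few counts. The calls for 6-thio-dG were 2 genes in each direction, where 3.06% of all genes had a called difference below 0 and 2.48% above 0. For BIBR1532 the difference was called for FN1 (-2.51 ± 0.54, edgeR adjusted p = 0.0214) and ITGA5 (-1.66 ± 0.44, adjusted p = 0.0497), which rose in A375, where 1.55% of all genes had a called difference below 0 and 2.09% above 0. The 2 FN1 differences use the same control libraries, where FN1 averaged 307 CPM in LOX-IMVI BR and 57.9 CPM in A375. With 6-thio-dG FN1 averaged 30.8 CPM in LOX-IMVI BR and 30.4 CPM in A375, and with BIBR1532 331 and 357 CPM. The 2 calls are thus not independent, and the part of the control levels in them was not tested. After GC correction the 6 called differences were all still called. Calls were more common in that fit. For 6-thio-dG 10.7% of its genes had a called difference below 0 and 9.5% above 0, and for BIBR1532 10.1% and 5.87%. With the correction ITGA3 was called too for both compounds (1.12 for 6-thio-dG and 0.84 for BIBR1532), ITGA5 for 6-thio-dG (-1.09), and ITGB8 (-2.32) and ITGA6 (1.06) for BIBR1532. ITGAV was also called for both, at -1.96 for 6-thio-dG and -1.20 for BIBR1532 (adjusted p = 0.0252), the second against 0.27 without the correction. Leaving out any 6-thio-dG or control library of LOX-IMVI BR ended all 4 calls for 6-thio-dG, and leaving out any BIBR1532 library of either line or any control library of LOX-IMVI BR ended both calls for BIBR1532. Without A375 control replicate 1, FN1 and ITGB3 remained for 6-thio-dG, and without A375 BIBR1532 replicate 2 ITGB3 alone remained. Without either 6-thio-dG library of LOX-IMVI BR, FN1 alone remained for BIBR1532.

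**Figure D4:**
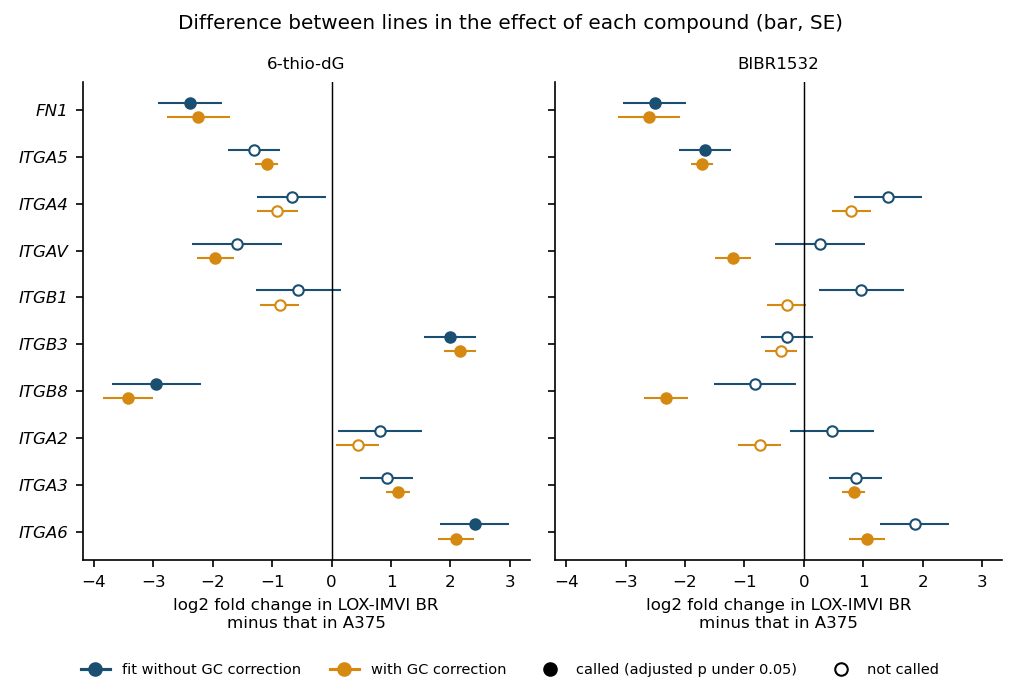
Difference between LOX-IMVI BR and A375 in the log2 fold change of each gene with 6-thio-dG (left) and BIBR1532 (right), ± SE, without (blue) and with (orange) GC correction, with filled points for an edgeR adjusted p under 0.05. FN1 is filled on the left of 0 for both compounds, at -2.38 and -2.51, and both values use the same control libraries.

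Genes that work with these receptors were read in 4 lists. Other ligands of integrins fell in 16 of 34 tested genes and rose in 3 with 6-thio-dG in LOX-IMVI BR, with a median log2 fold change of -0.95 beside 0.05 over all genes tested. Of all genes 7.16% were called lower and 9.81% higher there, and of symbol-named genes 10.8% and 6.21%. The collagen chain COL1A1 averaged 15.5 ± 0.609 CPM with 6-thio-dG and 1629 ± 16.2 CPM in the control (SD, n = 2 in this and the following values). COL6A3, a chain of collagen VI, averaged 0.990 ± 0.209 CPM with 6-thio-dG and 75.1 ± 2.38 CPM in the control. THBS2, a thrombospondin, averaged 4.04 ± 0.330 CPM with 6-thio-dG and 141 ± 1.39 CPM in the control. These are log2 fold changes of -6.72 ± 0.40, -6.23 ± 0.40 and -5.12 ± 0.35 (edgeR adjusted p at most 1.74e-06). COL1A1 is also among 6 markers of fibroblasts, whose summed level was 23.7 to 25.7 CPM with 6-thio-dG, 1569 to 1644 CPM with BIBR1532 and 1825 to 1856 CPM in the control of this line. In the 6-thio-dG and control libraries most of that sum was COL1A1 itself, so the sum largely repeats its fall. The part of these markers in the falls was not tested.

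In A375, 16 of 34 ligands fell and 3 rose with 6-thio-dG (median -0.92 beside 0.03 over all genes), where 8.21% of all genes were called lower and 9.86% higher. Tenascin C (TNC) averaged 149 ± 59.4 CPM with 6-thio-dG and 1217 ± 31.3 CPM in the control. The laminin chain LAMB1 averaged 112 ± 11.2 CPM with 6-thio-dG and 610.1 ± 256 CPM in the control. With BIBR1532 in A375, 11 ligands rose and 2 fell (median 0.50 beside -0.04), where 8.49% of all genes were called higher and 7.29% lower. ICAM1, a ligand of leukocyte integrins, averaged 563 ± 46.1 CPM with BIBR1532 and 62.5 ± 5.15 CPM in the control (3.17 ± 0.34, edgeR adjusted p = 5.2e-05). LAMB3, a laminin chain of epithelial basement membranes, averaged 357 ± 19.9 CPM with BIBR1532 and 36.6 ± 12.2 CPM in the control. Summed markers of keratinocytes and epithelial cells were 257 to 268 CPM with BIBR1532 and 75.7 to 195 CPM in the A375 control. They were 106 to 160 CPM with 6-thio-dG in A375 and at most 11.9 CPM in LOX-IMVI BR. The part of these markers in the results was not tested. In LOX-IMVI BR, BIBR1532 raised 5 ligands and lowered 3 (median -0.16 beside 0.04), where 2.9% of all genes were called higher and 0.69% lower. LAMB3 averaged 99.8 ± 23.7 CPM there with BIBR1532 and 17.9 ± 0.346 CPM in the control. The matricellular protein CYR61 averaged 3156 ± 448 CPM with BIBR1532 and 860.0 ± 20.7 CPM in the control.

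The adaptors that link integrin tails to actin fell in 17 of 31 tested genes with 6-thio-dG in LOX-IMVI BR, and none rose (median -0.94). Of all genes 7.16% were called lower and 9.81% higher there. Vinculin (VCL), which reinforces the talin link, averaged 210.2 ± 5.24 CPM with 6-thio-dG and 1008 ± 37.8 CPM in the control (-2.26 ± 0.26, edgeR adjusted p = 7.74e-05). The tensin TNS3 averaged 25.5 ± 1.09 CPM with 6-thio-dG and 140.1 ± 2.34 CPM in the control. In A375, 11 adaptors fell and 2 rose with 6-thio-dG (median -0.51), where 8.21% of all genes were called lower and 9.86% higher. The actin-associated protein PDLIM7 averaged 47.9 ± 14.2 CPM with 6-thio-dG and 147 ± 45.4 CPM in the A375 control. Kindlin-3 (FERMT3), best known from blood cells, rose to 10.2 ± 3.41 CPM with 6-thio-dG, against 2.10 ± 1.01 CPM in the control. Summed markers of leukocytes were 4.34 to 6.58 CPM with 6-thio-dG and 1.496 to 1.63 CPM in the A375 control, and their part in this rise was not tested. With BIBR1532 in A375, 4 adaptors rose and 2 fell (median -0.06), where 8.49% of all genes were called higher and 7.29% lower. Kindlin-1 (FERMT1) averaged 421 ± 4.91 CPM with BIBR1532 and 83.7 ± 34.7 CPM in the control (2.33 ± 0.33, edgeR adjusted p = 0.000431). In LOX-IMVI BR, where 0.69% of all genes were called lower and 2.9% higher, BIBR1532 lowered 1 adaptor and raised none. This was BCAR1, the p130Cas scaffold, at 107 ± 8.19 CPM with BIBR1532 and 283 ± 2.47 CPM in the control.

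Regulators and membrane partners of integrins fell in 5 of 22 tested genes with 6-thio-dG in LOX-IMVI BR, with none higher (median -0.50). Of all genes 7.16% were called lower and 9.81% higher there. The tetraspanin CD82 averaged 6.78 ± 0.223 CPM with 6-thio-dG and 85.9 ± 3.54 CPM in the control of that line. Syndecan-4 (SDC4), a fibronectin co-receptor, averaged 42.5 ± 2.71 CPM with 6-thio-dG and 195 ± 6.23 CPM in the control. In A375, CD82 rose with each compound, at 21.8 ± 8.14 CPM with 6-thio-dG, 88.9 ± 3.18 CPM with BIBR1532 and 5.72 ± 3.70 CPM in the control (1.97 ± 0.41 and 3.99 ± 0.44, edgeR adjusted p = 0.00575 and 6.03e-05). Caveolin-1 (CAV1) fell with each compound in A375, at 99.4 ± 41.1 CPM with 6-thio-dG and 79.2 ± 1.04 CPM with BIBR1532 against 317 ± 26.6 CPM in the control. SDC4 rose with BIBR1532 in A375, at 1063 ± 61.3 CPM against 410.1 ± 129 CPM in the control. In A375, 1 regulator rose and 2 fell with 6-thio-dG, and 3 rose and 1 fell with BIBR1532 (medians -0.03 and 0.00). These counts are read against the 9.86% higher and 8.21% lower of all genes with 6-thio-dG and the 8.49% higher and 7.29% lower with BIBR1532.

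**Figure D5:**
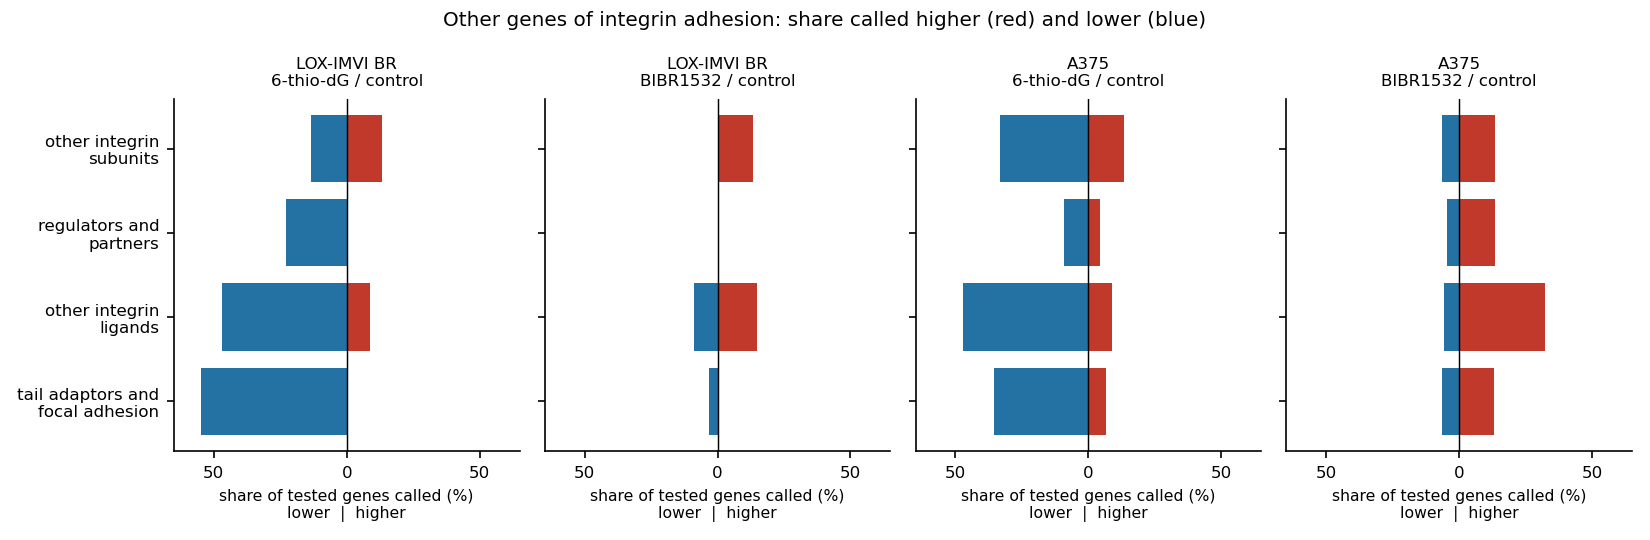
Share of the tested genes in 4 lists of integrin adhesion genes called lower (blue, left of 0) and higher (red, right of 0) by edgeR with each compound. The blue bars are longest with 6-thio-dG, where 17 of 31 adaptors and 16 of 34 ligands were lower in LOX-IMVI BR, and the ligands with BIBR1532 in A375 show 11 of 34 higher.

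Of 15 other integrin subunits tested, 2 rose and 5 fell with 6-thio-dG in A375, and 2 rose and 1 fell with BIBR1532 in A375 (medians -0.85 and 0.50). In LOX-IMVI BR, 2 rose and 2 fell with 6-thio-dG and 2 rose with BIBR1532 (medians 0.23 and 0.17). Of all genes in A375, 9.86% were called higher and 8.21% lower for 6-thio-dG, and 8.49% higher and 7.29% lower for BIBR1532. In LOX-IMVI BR these shares were 9.81% higher and 7.16% lower for 6-thio-dG, and 2.9% higher and 0.69% lower for BIBR1532. ITGB4, the beta partner of ITGA6 in hemidesmosomes, averaged 8.42 ± 2.98 CPM with 6-thio-dG in A375 and 54.5 ± 11.9 CPM in its control (-2.70 ± 0.33, edgeR adjusted p = 0.000228). It fell there beside ITGA6 and ITGA3. In LOX-IMVI BR, ITGA1, a collagen receptor subunit, fell to 2.43 ± 0.311 CPM with 6-thio-dG, against 13.2 ± 0.276 CPM in the control. ITGB7, a leukocyte subunit, rose to 5.69 ± 0.679 CPM with 6-thio-dG in that line, against 0.684 ± 0.453 CPM in the control. Summed markers of leukocytes were 1.76 to 2.81 CPM with 6-thio-dG and 0.452 to 0.455 CPM in the control of LOX-IMVI BR, and their part in this rise was not tested. The leukocyte subunit ITGAM rose with BIBR1532 in both lines, to 1.28 ± 0.223 CPM in LOX-IMVI BR, against 0.0934 ± 0.0610 CPM in its control, and to 4.52 ± 0.0147 CPM in A375, against 0.0561 ± 0.0793 CPM in its control. The leukocyte markers summed to 0.328 to 0.754 CPM with BIBR1532 and 0.452 to 0.455 CPM in the control of LOX-IMVI BR, and 3.14 to 3.44 CPM with BIBR1532 and 1.496 to 1.63 CPM in the control of A375, and their part in this result was not tested.

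Between the control lines, 3 of 15 other subunits tested were higher and 10 lower in LOX-IMVI BR than in A375. Calls were common in this comparison, with 21.1% of all genes higher and 28.8% lower, and 22.5% and 32.3% of symbol-named genes. The counts of all 4 lists are read against these shares. ITGB4 averaged 2.95 ± 0.268 CPM in LOX-IMVI BR and 54.5 ± 11.9 CPM in A375. Of the 34 ligands tested 9 were higher and 15 lower in LOX-IMVI BR. COL1A1 averaged 1629 ± 16.2 CPM in LOX-IMVI BR and 3.16 ± 0.137 CPM in A375, whereas COL4A1, a basement membrane collagen, averaged 0.388 ± 0.162 CPM in LOX-IMVI BR and 176 ± 10.2 CPM in A375. Of the 31 adaptors tested 16 were higher and 8 lower in LOX-IMVI BR, and FERMT3 averaged 288 ± 2.46 CPM in LOX-IMVI BR and 2.10 ± 1.01 CPM in A375. Of the 22 regulators tested 10 were higher and 5 lower in LOX-IMVI BR, and the tetraspanin CD9 averaged 0.358 ± 0.00891 CPM in LOX-IMVI BR and 95.7 ± 47.3 CPM in A375.

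Genes whose log2 CPM followed FN1 closely over the 12 libraries, among 10198 genes that averaged 5 CPM or more, included GFPT2, HGSNAT, PCDHB6 and ATRN, with Pearson r between 0.955 and 0.965. Those most like ITGB3 were PXDN, B3GAT1, TBX3, GNG4 and CD22, with r of 0.998 to 0.999. For ITGB3 the libraries of the lines form separate clusters, so that these coefficients mainly hold the difference between the lines, and all 12 points share the scaling of their libraries.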

How the data were processed

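RNA of 12 cultures was sequenced after TRIzol extraction with a kit that does not keep the strand, per the labels' protocols. The authors deposited 1 table of raw read counts per gene. STAR, Picard, GATK, featureCounts 1.5.1 and hg19 are named, without roles, per the submitters' processing notes. From 75253 rows 4 with duplicated date-like names were dropped (at most 0.000913% of a library's counts). Counts were scaled by TMM, filtered with filterByExpr and tested over all 12 libraries as 6 group means with edgeR 4.0.16's quasi-likelihood test (R 4.3.3), with Benjamini-Hochberg adjustment over 29114 genes and a threshold of 0.05. P-values rest on the spread between samples labelled as biological replicates, 2 per group, shared over both lines and not taken from 1 line alone. GC correction used a lowess trend (span 0.3) of each library on the GC content of the longest coding transcript in GENCODE release 29, for 14048 genes. That transcript also gave the lengths for CPM per kb. DESeq2 1.42.0, other scalings, other filters, the libraries of a line alone, a replicate block and leaving out each library were alternatives, and the procedure was tested on simulated data. The 10 genes and the lists were chosen with earlier results of these data known. All 10 are reported, and genes from the lists are those with the smallest adjusted p in each comparison, or the same genes in another comparison, and some that the rule names are not reported here. Whether the same replicate numbers pair the samples cannot be told from these data, and the main fit used no pairing. The correlation of their deviations ran from -0.25 to 0.57, and was highest between 6-thio-dG and BIBR1532 in A375.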

Additional observations from a re-analysis of the deposited data

Results flagged for a closer look

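For 6 results the effect of a compound differed between the lines by a test of the difference itself (LOX-IMVI BR minus A375, log2 scale, edgeR with Benjamini-Hochberg adjustment). For 6-thio-dG the differences were -2.381 for FN1 (adjusted p = 0.0189), 1.995 for ITGB3 (adjusted p = 0.0151), -2.948 for ITGB8 (adjusted p = 0.0324) and 2.412 for ITGA6 (adjusted p = 0.0257). For BIBR1532 they were -2.513 for FN1 (adjusted p = 0.0214) and -1.658 for ITGA5 (adjusted p = 0.0497). After GC correction they were -2.24, 2.16, -3.42 and 2.10 for 6-thio-dG and -2.61 and -1.71 for BIBR1532, and all were called. In that fit 10.7% of genes had a called difference below 0 and 9.5% above 0 for 6-thio-dG, and 10.1% and 5.87% for BIBR1532. The FN1 differences share their control libraries. ITGB3 had 22 to 42 counts per library in LOX-IMVI BR. Without GC correction, ITGB8 for 6-thio-dG was not called with the replicate block (edgeR adjusted p = 0.0618) or symbol-named genes only (0.0605). ITGB3 was not called with upper-quartile scaling (0.057). ITGA5 for BIBR1532 was not called with the block (0.0881) or DESeq2 size factors (0.0579). Calls were also lost when single libraries were left out. No cause was tested.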

How the results depend on the processing

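With 2 replicates per group, counts of called genes moved with the fit. The share of all genes called also differs between fits and is not given beside each count. For 6-thio-dG in A375 the 5 calls were 3 with the A375 libraries alone, 3 with symbol-named genes only and 3 to 8 when a library was left out. For BIBR1532 in A375 the 6 calls were 1 with the line alone and 1 to 8 with a library left out. For 6-thio-dG in LOX-IMVI BR the 7 calls were 3 to 7 with a library left out. For BIBR1532 in LOX-IMVI BR the 0 calls were 6 with the line alone and 2 after GC correction. For 6-thio-dG against BIBR1532 in A375 the 3 calls were 8 after GC correction, 9 with GC correction and replicate block, 6 without a low-count filter, 5 with DESeq2's test and 3 to 9 with a library left out. For the same comparison in LOX-IMVI BR the 6 calls were 4 to 7 with a library left out, 4 with symbol-named genes only and 9 with the line alone. Between the controls the 8 calls were 6 to 10 with a library left out. For the line difference in 6-thio-dG effect the 4 calls were 7 after GC correction, 7 with GC correction and replicate block, and 0 to 7 with a library left out. For that in BIBR1532 effect the 2 calls were 6 after GC correction, 5 with GC correction and replicate block, 1 with the replicate block, 1 with DESeq2 size factors and 0 to 5 with a library left out. The replicate block, whose numbers are not known to pair the samples, gave 5, 6, 6, 0, 4, 6 and 8 calls in the other comparisons, in the order of 6-thio-dG and BIBR1532 in A375, the same in LOX-IMVI BR, the compounds against each other in A375 and LOX-IMVI BR, and the controls, and 3 for the difference in 6-thio-dG effect.

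Upper-quartile scaling shifted the median of all genes by 0.39 for 6-thio-dG and 0.23 for BIBR1532 in A375, 0.23 and -0.12 in LOX-IMVI BR, and 0.16 and 0.35 for 6-thio-dG against BIBR1532 in A375 and in LOX-IMVI BR. The calls over all genes were then 5341 higher and 1337 lower for 6-thio-dG in A375, against 2871 and 2390 with TMM, and 3768 and 1362 for 6-thio-dG in LOX-IMVI BR, against 2855 and 2084.

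Single genes not called with TMM changed sign as follows, and the cause was not tested. After GC correction, with and without the block, BIBR1532 in A375 gave 0.53 and 0.56 for ITGAV and 0.44 and 0.46 for ITGA2. ITGA6 with 6-thio-dG in LOX-IMVI BR was 0.089 after GC correction, 0.089 with GC correction and block and 0.044 with upper-quartile scaling. ITGA4 with BIBR1532 in LOX-IMVI BR was -0.022 with the line alone, -0.095 and -0.096 after GC correction, -0.084 with upper-quartile scaling, -0.0065 without a filter and -0.028 with symbol-named genes, and FN1 there was -0.011 with upper-quartile scaling. For 6-thio-dG against BIBR1532 in A375, ITGA4 was -0.094 with the block, -0.050 with DESeq2 size factors, -0.17 without a filter and -0.051 with DESeq2's test, and ITGAV was 0.040 with symbol-named genes. In LOX-IMVI BR, ITGA2 was 0.22 and 0.23 and ITGA6 0.031 and 0.035 after GC correction, and ITGA2 0.066 with upper-quartile scaling. Between the controls ITGA2 was -0.22 and -0.23 after GC correction. For the difference in BIBR1532 effect, GC correction gave -1.20 and -1.17 for ITGAV, -0.29 and -0.28 for ITGB1 and -0.74 and -0.73 for ITGA2, and upper-quartile scaling -0.077 for ITGAV. With a library left out, ITGAV with 6-thio-dG in A375 ran from -2.64 to 0.068, ITGA2 with BIBR1532 in LOX-IMVI BR from -0.18 to 0.050 and ITGA4 there from -0.019 to 0.087. For 6-thio-dG against BIBR1532 in A375, ITGA4 ran from -1.19 to 0.67, ITGAV from -1.99 to 0.72, ITGB1 from -2.24 to 0.27 and ITGA2 from -2.14 to 0.090. For the difference in 6-thio-dG effect, ITGA4 ran from -1.31 to 0.56, ITGAV from -2.38 to 0.33 and ITGB1 from -1.32 to 1.18.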
